A study of Mus musculus with 2 samples.

Results

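The mannose receptor gene Mrc1 and 9 other C-type lectin genes (Clec10a, Mgl2, Cd209a, Clec7a, Clec4d, Clec4e, Clec4n, Clec4a2 and Clec12a) were examined in the macrophage response to interleukin-4 (IL-4). They were taken by symbol, and all 10 were found among the 15623 genes listed in at least 1 of the 2 libraries. RNA came from peritoneal macrophages of young adult, wild-type C57BL/6 mice, drawn into the cavity by thioglycollate, purified by adherence and kept in low serum. The cells were left nontreated (NT, 1 library) or received mouse IL-4 for 6 h (1 library). The labels also give bone marrow as the tissue, whereas their source field and the study name peritoneal cells. The dose of IL-4 is not in the labels, although the methods of the study state one for mouse macrophages. The number of mice behind each library is not given in the sources used here.

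C-type lectins are cell-surface or secreted proteins that share a lectin-like fold, and many bind sugars in the presence of calcium. On macrophages, some of them, such as the mannose receptor, take up glycoproteins and microbes. Others, such as dectin-1 and Mincle, signal through the kinase Syk and the adaptor Card9 when they meet fungal or mycobacterial ligands, and still others carry inhibitory motifs. The mannose receptor is a standard marker of alternatively activated (M2) macrophages.

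The NT library held 11035641 expected counts and the IL-4 library 11250099, and a floor of 3 counts stood at 0.272 and 0.267 CPM (counts scaled to the total of the library). With 1 library per group there was no replicate check, so that each difference given here is one between a pair of libraries. All intervals are exact 95% counting intervals, which cover counting error only, because 1 library per group holds no measure of variation between samples. The amplified reads also lacked molecular identifiers, and copies of the same molecule could be counted more than once. Even counting error can therefore be understated. Levels are given as FPKM (fragments scaled to transcript length and library size). Of 8 macrophage genes, Lyz2, Cd68, Adgre1 and Csf1r were abundant in both libraries, at 91.8 to 10811 FPKM in the IL-4 library. There, Itgam lay at 70.5, Cd14 at 31.4, Mertk at 23.3 and Fcgr1 at 5.02 FPKM. These genes were not all stable, since Csf1r rose from 145 to 270 FPKM and Cd14 fell from 66.0 to 31.4 FPKM. All 6 genes chosen as a check of the IL-4 label rose (Arg1, Chil3, Retnla, Irf4, Socs1 and Cish). In bulk RNA, a lower level in each cell and fewer cells of a type cannot be told apart.

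Of the 10 genes, 4 rose (Mrc1, Clec10a, Mgl2 and Clec7a), 4 fell (Clec4d, Clec4e, Clec4n and Clec12a) and 2 were not called (Clec4a2 and Cd209a). Calls required a log2 ratio (IL-4 over NT) of 0.75 or more in size, with a counting interval that left out 0. Over all 15601 genes with a read, this rule called 4.07% higher and 6.28% lower, or 10.3% in either direction. No filter on low values was applied, so the 10 genes were all tested. They had been chosen with earlier results of these data known, so the share called, 8 of 10, is a description of these genes.

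**Figure D1:**
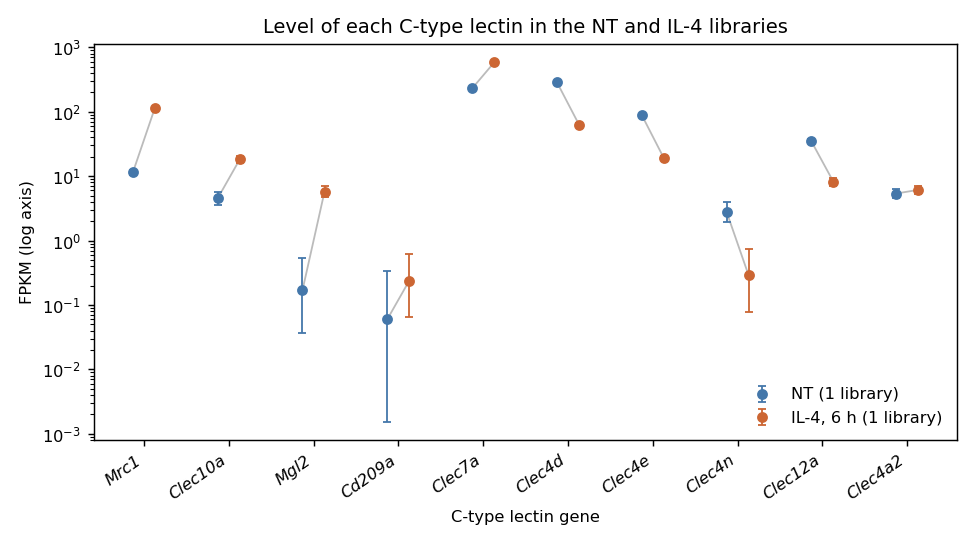
FPKM of the 10 C-type lectin genes (log axis) in the NT library (blue) and the IL-4 library (orange), with bars for the exact 95% counting interval of the single library. Mrc1 went from 11.4 to 115 FPKM, whereas Clec4d went from 287 to 63.2 FPKM.

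Of the 4 genes for glycan uptake receptors, 3 rose (Mrc1, Clec10a and Mgl2), and they lay at low or moderate levels in NT cells. Mrc1, a long endocytic receptor for mannose and other sugars (30 exons and 1456 residues in the GENCODE transcript matched to its RefSeq entry), had 679 expected counts without IL-4 and 6962 with it. Its level per length went from 11.4 to 115 FPKM, a 10.1-fold rise with an interval of 9.29 to 10.9. Only 12 of the 187 genes that rose and had at least 500 reads in either library rose by a larger factor, so that Mrc1 ranked 13. Among all listed genes, Mrc1 lay at percentile 66.5 of the FPKM values in NT cells and at percentile 95.8 after IL-4.

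Clec10a and Mgl2 encode the galactose-type lectins MGL1 and MGL2. Clec10a rose from 74.3 to 305 expected counts and from 4.52 to 18.2 FPKM, which is 4.0-fold (interval 3.13 to 5.29). Mgl2 had 2.82 expected counts without IL-4 and 99.9 with it, or 0.17 and 5.76 FPKM. Its log2 ratio was 4.89, with a wide interval from 3.44 to 7.33. The NT value was at about the floor of 3 counts, and Mgl2 was thus near the limit of detection in NT cells, and Clec10a was not.

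The rise of Mgl2 exceeded that of Clec10a, by a conditional estimate of 3.01 on the log2 scale (interval 1.36 to 5.35). This estimate comes from the odds ratio of the 4 counts with nothing added, so that it can differ from the difference of the log2 ratios printed for low counts. The genes resemble each other, however, and 20.3% of the 31-base words of the Mgl2 transcripts were also in those of Clec10a (13.4% the other way). Their counts are fractional, so some reads were divided by estimated abundance among features, and how far these genes shared reads was not tested. Summed, they rose from 77.1 to 404 counts (log2 ratio 2.36, interval 2.01 to 2.73), and this value does not depend on how reads were divided between them. They lie 29.1 kb apart on chromosome 11 (Mgl2 at 70130125 to 70137542 and Clec10a at 70166623 to 70170836, GRCm38). Asgr1 and Asgr2, which encode the related hepatic asialoglycoprotein receptor and lie beside them, were in neither table.

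Cd209a, a mouse relative of DC-SIGN and a marker of dendritic cells, had 1 count without IL-4 and 4 with it. Its log2 ratio of 1.56 had an interval from -1.36 to 7.59, so a change was not detectable at this depth. Since Clec10a, Mgl2 and Cd209a are also expressed by dendritic cells, markers of these cells were examined beside them. Of 6 such genes, Itgax rose from 2003 to 3527 counts, and the others had at most 41 counts in either library. Flt3, a defining marker, had 1 count in each library and Zbtb46 had 9 and 12. The summed level of the 6 genes was 47.4 FPKM in NT and 79.7 FPKM after IL-4, most of it Itgax. The part of dendritic cells in the rises of Clec10a and Mgl2 was not tested.

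The promoters of the genes that moved are shown because these genes moved in opposite directions, and because the study concerns Stat6, the transcription factor activated by IL-4. RefSeq windows (GRCm38.p6) were found for 8 of the 10 genes, all but Clec10a and Clec4n, and the 250 bases before the start site in that table are printed 5′ to 3′ on the strand of the gene. For Mgl2 and Clec12a this start site lies downstream of the gene start given here, so that most of the Mgl2 window and all of the Clec12a window lie within the annotated gene, and the bases before the outer start were not searched. Capitals mark matches, on either strand, to TTC followed by GAA after a gap of 4 or 3 bases (STAT-type), TTNNGCAA (C/EBP-type), AGGAAG (the core bound by PU.1 and other ETS factors) and TATAAA. These motifs do not overlap one another in the windows shown.
Mrc1 promoter, chr2:14229164-14229413, plus strand: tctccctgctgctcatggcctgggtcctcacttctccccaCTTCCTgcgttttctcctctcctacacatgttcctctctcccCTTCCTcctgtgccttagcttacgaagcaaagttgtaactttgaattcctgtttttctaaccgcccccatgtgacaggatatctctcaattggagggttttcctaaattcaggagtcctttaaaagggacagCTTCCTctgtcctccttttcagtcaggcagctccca
Mgl2 window, chr11:70130107-70130356, plus strand: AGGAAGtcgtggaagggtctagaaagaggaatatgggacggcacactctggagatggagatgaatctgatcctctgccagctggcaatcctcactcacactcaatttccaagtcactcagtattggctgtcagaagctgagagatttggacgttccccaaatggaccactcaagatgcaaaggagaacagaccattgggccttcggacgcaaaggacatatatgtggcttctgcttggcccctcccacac
The Mrc1 window held 3 matches to the ETS-type core, starting 210, 168 and 36 bases before the start site, and the Mgl2 window held 1 at its far end. Neither window held a STAT-type match. The ETS-type core is common, with a match in 29.5% of all 32851 promoter windows of this length.

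Clec7a encodes dectin-1, the receptor for fungal β-glucan, which carries its own activation motif and signals through Syk. It rose from 5452 to 14074 expected counts and from 229 to 581 FPKM, which is 2.53-fold with an interval of 2.45 to 2.61. It was the most abundant of the 10 genes in the IL-4 library, above the level of 99.2% of all listed genes. In NT cells it was second to Clec4d. The rise was the smallest of the 4 in fold and the largest in reads.
Clec7a promoter, chr6:129472780-129473029, minus strand: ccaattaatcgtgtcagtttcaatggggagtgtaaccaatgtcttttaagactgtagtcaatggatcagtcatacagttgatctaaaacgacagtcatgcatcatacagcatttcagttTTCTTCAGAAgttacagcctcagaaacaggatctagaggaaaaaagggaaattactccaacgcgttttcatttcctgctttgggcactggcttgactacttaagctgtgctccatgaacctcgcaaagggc
This window held the only STAT-type match with a gap of 4 bases, the spacing favoured by Stat6, among the 8 windows, starting 131 bases before the first of the 2 start sites in RefSeq. Such a match was present in 5.85% of all windows, and its absence from the others says only that these letters are not within the 250 bases. Clec7a lies on chromosome 6 from 129461591 to 129472785.

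By contrast, the 3 of the 10 genes whose products pair with the Fc receptor γ chain all fell. Clec4d encodes MCL and Clec4e encodes Mincle, which associate with each other and recognize mycobacterial glycolipid. Clec4d fell from 4186 to 941 expected counts and from 287 to 63.2 FPKM, and was 4.53-fold lower after IL-4 (interval 4.22 to 4.87). Clec4e fell from 2484 to 545 counts and from 89.0 to 19.2 FPKM, and was 4.64-fold lower (interval 4.23 to 5.11). Clec4d was the most abundant of the 10 genes in NT cells. Of the 266 genes that fell and had at least 500 reads in either library, Clec4e ranked 4, Clec4d ranked 6 and Clec12a ranked 7 by the size of the fall.
Clec4d promoter, chr6:123261857-123262106, plus strand: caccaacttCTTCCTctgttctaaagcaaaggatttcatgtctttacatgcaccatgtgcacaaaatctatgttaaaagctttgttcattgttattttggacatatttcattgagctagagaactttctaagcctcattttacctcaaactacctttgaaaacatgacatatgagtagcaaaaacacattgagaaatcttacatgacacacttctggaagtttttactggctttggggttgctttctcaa
Clec4e promoter, chr6:123289872-123290121, minus strand: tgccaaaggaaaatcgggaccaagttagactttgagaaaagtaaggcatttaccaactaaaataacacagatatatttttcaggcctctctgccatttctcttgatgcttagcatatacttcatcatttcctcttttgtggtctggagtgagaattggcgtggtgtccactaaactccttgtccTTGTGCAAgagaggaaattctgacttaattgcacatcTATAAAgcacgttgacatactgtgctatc
The Clec4e window held a C/EBP-type match starting 66 bases before the start site and a TATAAA box starting 29 bases before it. The Clec4d window held neither, but 1 ETS-type core. The C/EBP-type motif was in 9.56% of all windows and TATAAA in 12.4%.

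The falls of Clec4d and Clec4e were close in size. Their log2 ratios, -2.18 and -2.22, differed by 0.04, with an interval from -0.14 to 0.21, and the level of Clec4d was 3.22 times that of Clec4e in NT cells and 3.30 times after IL-4. Clec4n, which encodes dectin-2, a receptor for fungal mannan, was much less abundant. It fell from 35 to 4 counts and from 2.81 to 0.29 FPKM (log2 ratio -3.01, interval -5.11 to -1.67). Its fall could not be told from that of Clec4d at this depth (conditional estimate of the difference in log2 ratio -0.98, interval -2.93 to 0.51). Together the 3 genes went from 379 to 82.6 FPKM.

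Clec12a and Clec4a2 encode receptors with inhibitory motifs, MICL and DCIR. Clec12a fell from 855 to 205 counts and from 34.8 to 8.18 FPKM, and was 4.24-fold lower after IL-4 (interval 3.65 to 4.98). Its fall was close to those of Clec4d and Clec4e, with log2 ratios that differed by -0.09 (Clec4d minus Clec12a, interval -0.34 to 0.16) and -0.13 (Clec4e minus Clec12a, interval -0.39 to 0.14). Clec4a2 had 147 counts without IL-4 and 170 with it, or 5.37 and 6.12 FPKM. Its log2 ratio of 0.19 had an interval from -0.15 to 0.51, which leaves out a change as large as the limit of 0.75. Summed with Clec4a1, Clec4a3, Clec4a4 and Clec4b1, it had a log2 ratio of 0.71 (interval 0.61 to 0.82), not called either. Most of the summed counts came from Clec4a3 (569 and 1141) and Clec4a1 (391 and 532). These shared 0.31% and 0% of the 31-base words of Clec4a2, so the sum says little about Clec4a2 itself.
Clec12a window, chr6:129349994-129350243, plus strand: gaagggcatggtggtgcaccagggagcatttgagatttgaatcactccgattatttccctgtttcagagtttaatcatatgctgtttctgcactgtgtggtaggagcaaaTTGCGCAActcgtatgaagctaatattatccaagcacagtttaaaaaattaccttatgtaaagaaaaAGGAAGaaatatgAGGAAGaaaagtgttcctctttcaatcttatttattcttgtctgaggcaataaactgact
The Clec12a window held a palindromic C/EBP-type match starting 140 bases before the start site and 2 ETS-type cores. The window of Clec4a2, which is not printed, held a STAT-type match with the gap of 3 bases, a spacing found in 7.02% of all windows.

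**Figure D2:**
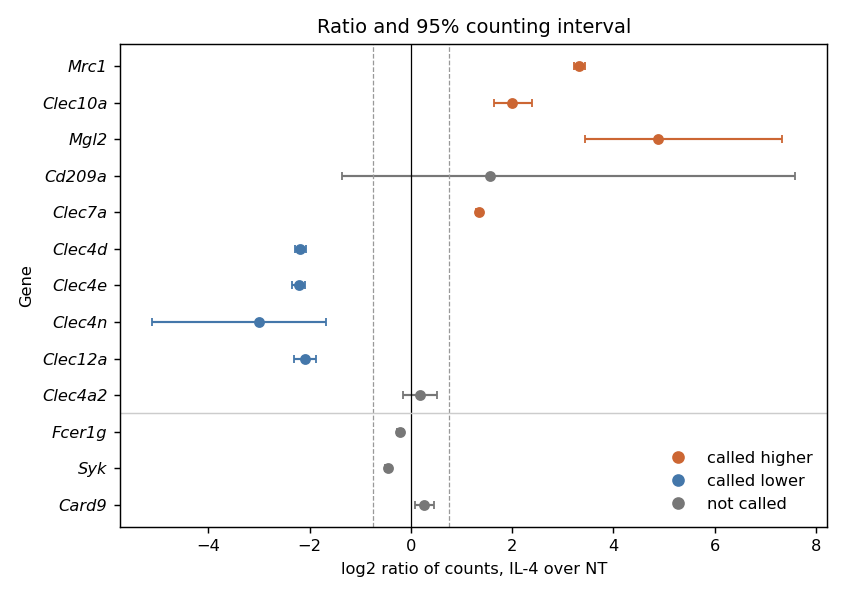
Log2 ratio of expected counts (IL-4 over NT) for the 10 C-type lectin genes and, under the grey line, 3 signalling genes, with the exact 95% counting interval; dashed lines mark 0.75 in either direction. Mrc1, Clec10a, Mgl2 and Clec7a lie to the right of the limit and Clec4d, Clec4e, Clec4n and Clec12a to the left, while Fcer1g, Syk and Card9 lie within it.

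Neutrophils also express Clec4d, Clec4e and Clec12a, so their markers were examined too. Of 6 neutrophil genes, 4 were in neither table (S100a9, Ly6g, Mpo and Retnlg). S100a8 had 35 counts without IL-4 and 21 with it, and Cxcr2 had 84.1 and 83.9. The summed level of the list was 11.3 FPKM in NT and 7.58 FPKM after IL-4. The part of neutrophils in the falls of Clec4d, Clec4e and Clec12a was not tested. Cd14, a monocyte and macrophage gene, also fell, from 1219 to 591 counts.

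The order of the levels changed with IL-4. In NT cells Clec4d was followed by Clec7a, Clec4e, Clec12a and Mrc1, each below the one before beyond counting error, and then by Clec4a2, Clec10a and Clec4n, whose neighbours in the order had overlapping intervals. After IL-4 the order was Clec7a, Mrc1 and Clec4d, again set apart, then Clec4e and Clec10a, which overlapped. Clec12a, Clec4a2 and Mgl2 came next with overlapping neighbours. Mgl2 and Cd209a in NT cells, and Clec4n and Cd209a after IL-4, were at the bottom with overlapping intervals.

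The level of Clec4d was thus 25.1 times that of Mrc1 in NT cells, whereas that of Mrc1 was 1.82 times that of Clec4d after IL-4. The 10 genes together made up 0.126% of the counts of the NT library and 0.207% of the IL-4 library, and their summed level was 664 and 817 FPKM. Clec7a took 34.5% of that sum in NT cells and 71.1% after IL-4. Clec4d went from 43.2% to 7.74% and Clec4e from 13.4% to 2.34%, while Mrc1 went from 1.72% to 14.1%.

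**Figure D3:**
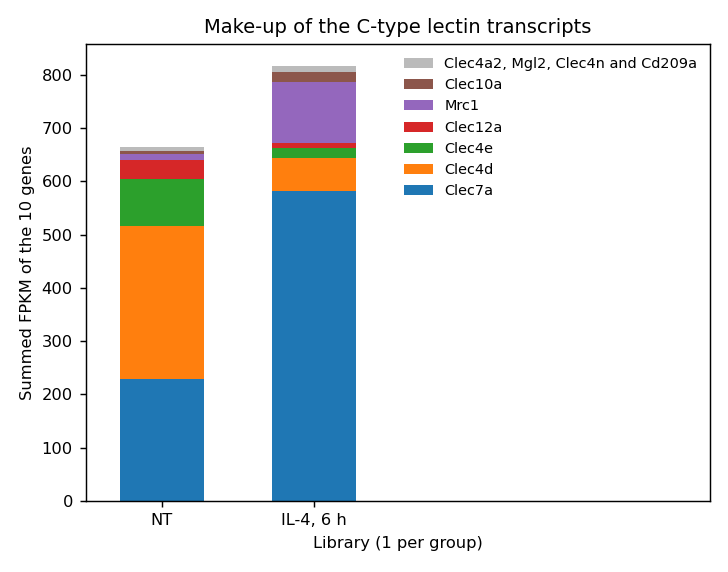
Summed FPKM of the 10 C-type lectin genes in the NT and IL-4 libraries, with each block the FPKM of 1 gene and Clec4a2, Mgl2, Clec4n and Cd209a drawn together in grey. Clec4d and Clec7a fill most of the NT bar, and Clec7a and Mrc1 fill most of the IL-4 bar.

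The genes on chromosome 6 lie in clusters. Position was not used to choose the genes, but they were chosen with earlier results of these data known. Their neighbours were named after the values were seen. In the first, 8 protein-coding genes lie from Clec4a3 to Clec4e, between 122952515 and 123289871. The last 3 of these are Clec4n, Clec4d and Clec4e, which lie within 60.0 kb, and all of them fell. At the other end, Clec4a3, which encodes another DCIR-type protein, rose from 569 to 1141 counts (log2 ratio 0.98, interval 0.83 to 1.12). Clec4a4 rose from 1.35 to 9 counts (interval of the log2 ratio 0.29 to 8.60), and Clec4a2, in the middle, was not called. On either side of Clec4a2, Clec4b1 had 2.35 and 3.23 counts and was not called, and Clec4b2 was in neither table. The ratio of Clec4a3 exceeded that of Clec4a2 by 0.79, with an interval from 0.43 to 1.15, so that these related genes of the cluster differed beyond counting error. Clec4a2 shared at most 4.96% of its 31-base words with any of its near copies.

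In the second cluster, from Clec2d to Olr1 (129180615 to 129507350), 10 protein-coding genes were annotated. Clec12a and Clec7a lie there 96.3 kb apart and moved in opposite directions. The genes between them, Clec12b, Clec1b, Clec9a and Clec1a, had at most 8 counts in either library. Olr1, which encodes the lectin-like receptor for oxidized low-density lipoprotein and lies next to Clec7a, rose from 22 to 133 counts (log2 ratio 2.54, interval 1.91 to 3.29). Its ratio exceeded that of Clec7a by 1.23 (interval 0.57 to 1.95). Mrc1 lies alone on chromosome 2 (14229414 to 14332023) and Cd209a on chromosome 8 (3743395 to 3748984).

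**Figure D4:**
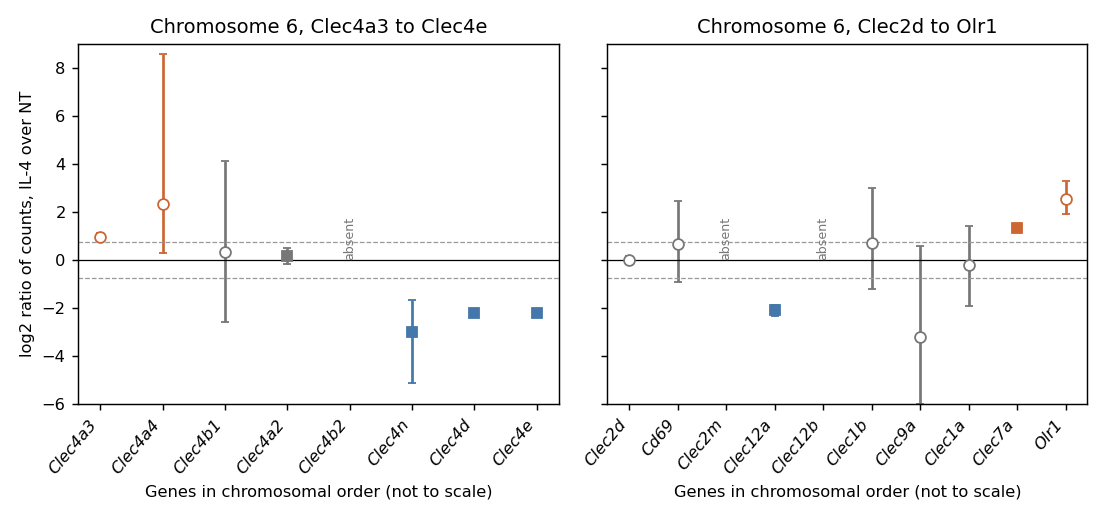
Log2 ratio of expected counts (IL-4 over NT) for the genes of the 2 chromosome 6 clusters, in chromosomal order but not to scale; squares are genes among the 10, open circles are their neighbours, orange, blue and grey mean called higher, called lower and not called, bars are exact 95% counting intervals (that of Clec9a runs off the axis) and absent marks genes in neither table. Clec4n, Clec4d and Clec4e sit side by side below the dashed limit of -0.75, and Clec12a lies below it while Clec7a and Olr1 lie above the upper limit.

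Other C-type lectins were examined as a list of 45 genes, of which 29 were listed in at least 1 library. Of these 29, 4 rose and 5 fell, or 31%, against 10.3% of all tested genes. Their median log2 ratio was -0.17, beside -0.03 over all tested genes. Besides Clec4a3, Clec4a4 and Olr1, the B-cell and macrophage receptor gene Cd72 rose, from 135 to 287 counts. Cd93, a receptor of myeloid and endothelial cells, had the highest FPKM of the list in the NT library and fell from 7962 to 2351 counts (log2 ratio -1.79). Thbd (thrombomodulin) fell from 465 to 232 counts.

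No other member of the mannose receptor family examined was called higher. Ly75, which encodes the endocytic receptor DEC-205, fell from 792 to 403 counts (log2 ratio -1.0, interval -1.18 to -0.83). Mrc2, which encodes the collagen receptor Endo180, fell from 32 to 12 counts (log2 ratio -1.41), and Pla2r1 had 3.03 and 4.01 counts. Clec2h fell from 5.74 counts to absence from the IL-4 table. The abundant genes Clec2d, Clec4a1 and Cd302 had log2 ratios of 0.01, 0.42 and -0.49 and were not called.

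Of 24 genes that carry or restrain signals from these receptors, 0 rose and 3 fell, or 12.5%. Among all tested genes, 4.07% were called higher and 6.28% lower. Log2 ratios lay below 0 for 18 of the 24 genes and above 0 for 6. Half-way in rank they stood at -0.33 (median), against -0.03 for all tested genes. The adaptor gene Fcer1g, whose product pairs with MCL, Mincle and dectin-2, went from 718 to 621 FPKM (log2 ratio -0.21, interval -0.27 to -0.15). Tyrobp, another adaptor, had a ratio of -0.30, and the kinase gene Syk one of -0.46. Card9, which relays the signal to NF-κB, had a ratio of 0.27, Prkcd, a kinase upstream of it, one of 0.37, and the phosphatase gene Ptpn6 one of -0.51. None of these was called, and the interval of each left out the falls measured for Clec4d, Clec4e and Clec12a. Among those that fell was the exchange factor gene Vav3 (-0.85), which was not called once the trend with transcript length given later was subtracted.

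The ratios of all genes fell with transcript length in these libraries, with a Spearman correlation of -0.45 across 8463 genes with at least 200 reads, which are not independent. Mrc1 has the longest transcript of the 10, at 5322 bases against at most 2519 for the others. With the median ratio of genes of like length subtracted, its log2 ratio was 3.56, and those of Clec4d and Clec4e were -2.35 and -2.26. With it subtracted, the size of the rise of Mrc1 and of the falls of Clec4d and Clec4e was larger, and that of the rises of Clec10a, Mgl2 and Clec7a smaller (1.90, 4.77 and 1.26). When a biological variation of 0.4 (coefficient of variation) between samples was assumed, Clec7a was no longer called, whereas the other 7 called genes were.

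**Figure D5:**
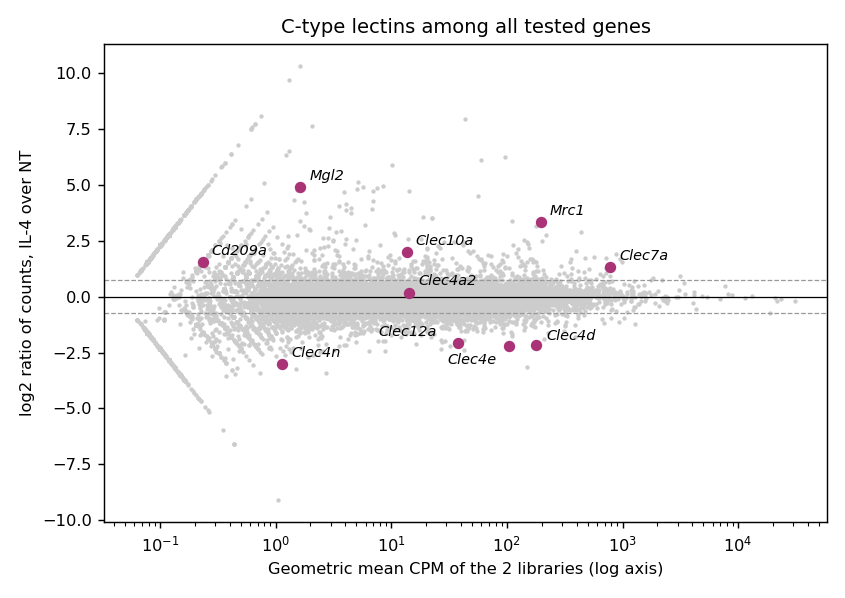
Log2 ratio of expected counts (IL-4 over NT) against the geometric mean CPM of the 2 libraries (log axis) for all tested genes (grey) and the 10 C-type lectin genes (purple); dashed lines mark 0.75 in either direction. Clec4d, Clec4e and Clec12a lie at ratios of -2.18, -2.22 and -2.09, below nearly all genes of like abundance, Mrc1 lies at 3.33 and Clec4a2 at 0.19.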

How the data were processed

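Sample titles gave the groups. The RNA was sequenced by BGI (Illumina HiSeq). According to their methods, the authors used Bowtie for alignment to GRCm38/mm10 and RSEM for quantification; tool versions are not given in the sources used here. The deposited expected counts are estimated reads per gene, not scaled for depth, and need not be whole because ambiguous reads are split by estimated abundance. The deposited FPKM values are scaled by the authors for transcript length and assigned fragments. Per the file headers, a further column gives a weighted gene length, used for the length trend alone. A gene absent from a table was set to 0 (the lowest FPKM listed was 0.01). NCBI gene numbers were matched to symbols through a RefSeq table for GRCm38 (15587 of 15623 matched).

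Log2 ratios came from expected counts scaled to the library totals with 0.5 added per library. For each gene, the Clopper-Pearson 95% interval was taken for the share of its rounded counts that came from the IL-4 library and was converted to log2. Intervals of levels are exact Poisson intervals, and a difference between the log2 ratios of 2 genes is the conditional odds ratio estimate of their rounded counts, with its exact interval. The limit of 0.75 is that of the study. The 22 genes without a read after rounding were left out. All 10 genes are named, with the called genes of the other lists, some of their most abundant genes and the IL-4 check genes; some signalling genes are not reported here, and genes near Mgl2 in ratio are not given because its NT level was at the floor. Members, lists and motifs were chosen with earlier results of these data known. Flt3, Zbtb46, S100a8, Cxcr2 and the cluster neighbours were named after their values were seen. The procedure was also run on simulated libraries drawn with counting error alone, the error that its intervals assume. That run held no variation between samples and no length trend, so it cannot show how the procedure deals with them. Alternatives used TMM (edgeR 4.0.16) and median-of-ratios (DESeq2 1.42.0) scaling, FPKM, other limits, the edgeR exact test with an assumed variation, a length correction and summed near copies. Exon counts and shared words came from GENCODE mouse release M21. Python 3.11.15, scipy 1.17.1 and R 4.3.3 were used.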

Additional observations from a re-analysis of the deposited data

How the results depend on the processing

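No paired analysis was possible because NT and IL-4 have 1 library each, which also prevents leaving out a replicate. In 122 of 123 comparisons with an alternative, the C-type lectin genes kept their side of the call, and none of the called genes changed direction. Clec7a (1.34) was not called when a coefficient of variation of 0.4 was assumed. Many comparisons could hardly change a call, so this count is no measure of robustness. Every called gene had a ratio of at least 1.34 in size, beyond the other limits used. The FPKM alternatives kept the intervals of the counts, and the sum of Mgl2 and Clec10a entered for both genes. The other scalings shifted every log2 ratio by -0.02 to 0.04. The widest ranges were those of Mgl2 (2.36 to 4.93), lowest when summed with Clec10a, and Clec4n (-3.18 to -1.56), smallest in size with FPKM plus 1. Cd209a, not called, went from 1.56 to -0.28 when summed with its relatives, and a filter of at least 10 reads left it out.

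FPKM plus 1 gave 790 calls over all genes in place of 1614 (391 higher in place of 635, 399 lower in place of 979) and 3 lower among other C-type lectins. A log2 ratio of at least 1 gave 1054 calls, 580 of them lower, and 0 signalling genes. A fold change over 1.5 gave 5 signalling genes, all 5 lower. An assumed variation of 0.2 left 624 genes lower. With 0.4 there were 293 calls (205 higher and 88 lower), 2 among other C-type lectins (1 higher and 1 lower) and 0 among the signalling genes. A larger limit or assumed variation calls fewer genes by construction, and an added constant shrinks the ratios of scarce genes. Depth limited Cd209a, with 5 reads in all, the NT value of Mgl2 and the IL-4 value of Clec4n.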

Other observations

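Other families of lectins on macrophages were examined from lists that did not enter the comparisons above. None of the 7 galectin genes was called. Over all tested genes 10.3% were, a share that can also give no call in so short a list. Lgals2, Lgals4 and Lgals12 had at most 4 counts in either library. Lgals3, the most abundant, went from 4701 to 6588 FPKM (log2 ratio 0.49, interval 0.47 to 0.50), and Lgals1 went from 1294 to 1770 FPKM. Of the 8 sialic acid-binding Siglec genes listed, 0 rose and 3 fell, beside 4.07% higher and 6.28% lower over all tested genes. Siglec1 (sialoadhesin) fell from 813 to 348 counts, Cd33 from 471 to 232 counts and Siglecf from 53 to 27 counts. Cd22 went from 30.2 to 32.0 FPKM and was not called.

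Among markers of other cells, those of B cells summed to 106 counts without IL-4 and 97 with it, those of T and NK cells to 46.7 and 31.2, those of eosinophils to 18.8 and 16.2, and those of mast cells to 60 and 38. Mesothelial and fibroblast markers summed to 1643 and 1346 counts, of which Msln fell from 12 to 2, and those of large resident peritoneal macrophages to 88 and 124. Of 5 adipocyte genes, Adipoq had 0 counts without IL-4 and 139 with it (log2 ratio 8.10) and was called higher. The other 4 were in neither table. The part of these cells in the results was not tested.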
